A study of Mus musculus with 419 samples.

Results

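The SLC22 and SLCO genes encode the organic ion transporters of the cell membrane. Every gene of the count table whose symbol is Slc22a or Slco followed by a number was taken, provided that its counts summed to at least 100 over the whole series. This gave 40 of the 55487 genes, 25 of them Slc22a genes and 15 Slco genes, and the smallest sum belonged to Slc22a20 with 115 counts. The rule used names and total counts and no difference between groups, but it was chosen with earlier results of these data known. The study is a multi-organ RNA-seq atlas of relative energy deficiency in sport, in which energy intake falls short of what activity uses. It covers 19 tissues of CBA/CaJ mice of both sexes, Deficient (energy-deficient) and Control (energy-sufficient), collected at zeitgeber time 17 (ZT17) or 5 (ZT05), hours counted from lights on. Each combination of tissue, sex, treatment and time holds 3 mice, except the male Control ZT05 group of the tibialis anterior tendon with 2. All mice are of 1 inbred strain with no transgene named. The labels used here give neither ages nor how the energy deficit was produced.

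Proteins of the SLC22 family carry small charged molecules: the organic anion transporters (OAT) take up drugs, urate and steroid sulfates, the organic cation transporters (OCT) take up amines, and the OCTN transporters take up carnitine and ergothioneine. The organic anion transporting polypeptides encoded by Slco genes move bile acids, thyroid hormones, prostaglandins and steroid conjugates. In the kidney such transporters sit on the basolateral and apical faces of proximal tubule cells and secrete or reclaim their substrates. In the liver they sit on the sinusoidal face of hepatocytes, and several rodent members are known to differ between the sexes.

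Levels are given as CPM, taken over the counts outside mitochondrial-genome and rRNA-like transcripts and scaled within each tissue. Unless stated otherwise, groups of 6 join both times of 1 sex and treatment in 1 tissue. A change or difference is log2, Deficient over Control unless stated otherwise, with its standard error (SE), and a gene is said to have risen or fallen where edgeR's adjusted p over all genes tested in that tissue was below 0.05. Library totals ran between 5777450 and 53598697 counts over the 419 libraries. In 58 of these, all from 1 of the 2 sets of 12 males that the sample numbers in the labels form, such transcripts made up more than 50% of the counts. All male livers belong to that set, whose numbers interleave with those of the females, and keep 396891 to 1501136 other counts each. Such transcripts were 79.2% to 95.3% of the counts in male and 5.39% to 6.61% in female livers, so that in the liver sex and this share cannot be told apart. Among male livers the share was 79.2% to 94.4% (median 87.7%) in Deficient and 85.4% to 95.3% (median 94.1%) in Control mice. Whether this difference bears on the male liver responses was not tested. All male kidneys and adrenals come from the second set, numbered after the females, so that in these organs sex and animal set cannot be told apart. In bulk tissue, fewer cells of a type and less RNA per cell cannot be told apart. Kidney libraries carried Slc34a1 and Umod and liver libraries Alb and Ttr far above any other tissue's median. The female Deficient ZT05 kidneys of replicates 1 and 2 stood apart, the first with 27.6% of its counts from mitochondrial and rRNA-like genes and the second with 1659 CPM of the proximal tubule gene Lrp2. Member calls lost without this pair are named below, and counts of members include the pair unless stated otherwise. Female kidney results for marker genes, other transporters and regulators also include the pair, and fits without it are not given for them. Male Control ZT17 kidney replicate 2 also stood apart, with 1542 CPM of the immune gene Cd74, and male Deficient ZT05 replicate 2 had 1578 CPM of Lrp2, against 2188 to 2911 CPM in the other Deficient males. Without that Deficient library 18 members were called in male kidneys, against 20 with it, and the calls of Slco2b1 and Slco1a6 were lost.

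Most of these transporters were concentrated in a few organs. The highest mean level was in the kidney for 17 members, in the testis for 8, in the liver for 7, in the lung for 4 and in the pituitary for 2, while Slc22a3 peaked in brown adipose tissue (BAT) and Slco5a1 in the soleus muscle. Of the 40 members 6 reached a mean of 1 CPM in a single tissue, 8 reached it in all 19 tissues, and Slc22a20, known as an odorant transporter of the nose, reached it in none. The kidney genes Slc22a13 and Slc22a19 averaged 98.4 ± 43.6 and 156.7 ± 111 CPM there (SD, n = 24 each), with 0.259 CPM in the next tissue for Slc22a13 and 0.148 CPM for Slc22a19. In the testis Slc22a16, a carnitine transporter of germ cells, averaged 216 ± 23.2 CPM (SD, n = 12) and the next tissue 0.159 CPM. The testis also held the OATP6 members, Slco6b1 (annotated as a transcribed pseudogene), Slco6c1 and Slco6d1, at 49.5 ± 4.66, 97.8 ± 13.6 and 49.5 ± 6.34 CPM, and Slc22a14, needed for mouse sperm motility, at 134 ± 48.5 CPM. Slco1b2, the hepatocyte uptake carrier for bile acids and bilirubin, averaged 1439 ± 478 CPM in the liver (n = 24). The carnitine transporter Slc22a5, the orphan member Slc22a23 and the prostaglandin transporter Slco2a1 were among the 8 present in every tissue.

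**Figure D1:**
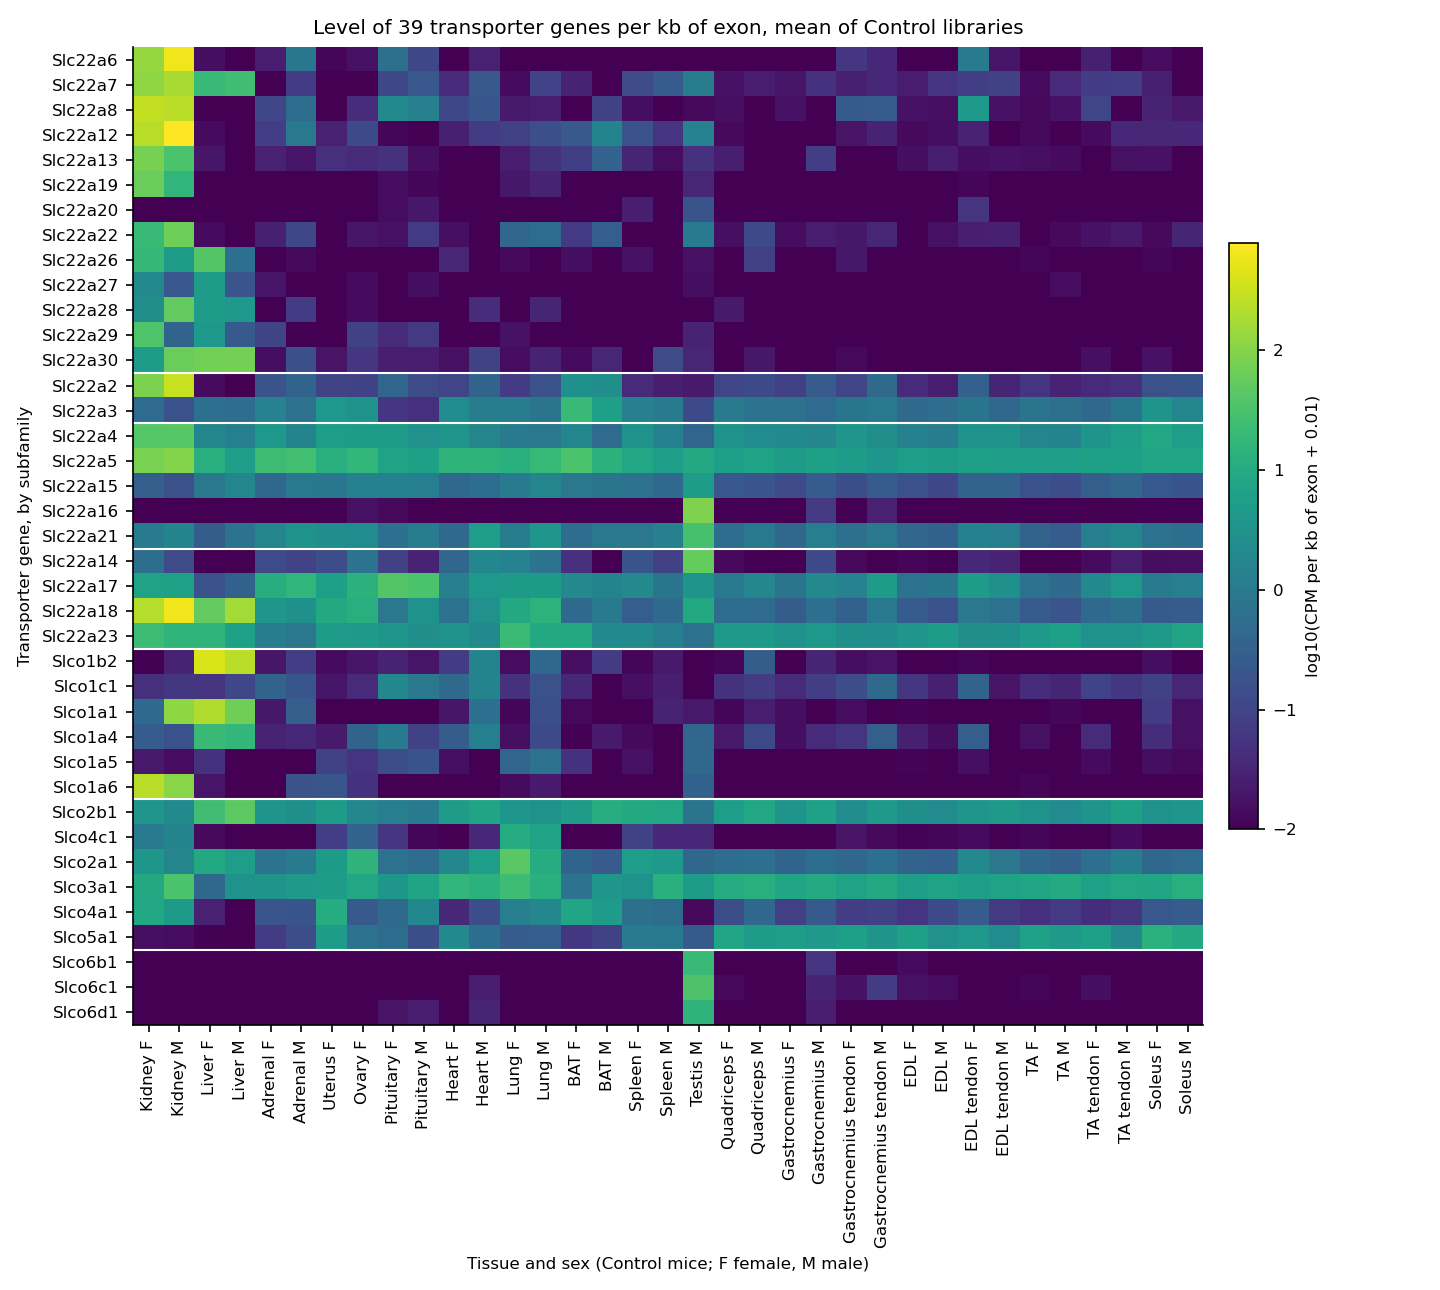
Level of 39 genes per kb of exon in Control libraries, a row per gene (grouped by subfamily, white lines) and a column per tissue and sex, as the mean over Control libraries on a log10 scale after adding 0.01. Most OAT rows are bright in kidney alone or in kidney and liver, the OATP6 rows and Slc22a16 in testis alone, and Slc22a5 and Slco3a1 across all columns.

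Per kb of exon, so that genes can be set against each other, Slc22a8 (Oat3, basolateral uptake of organic anions) had the highest mean among members in Control female kidneys, 279 ± 30.5 CPM per kb (SD, n = 6). It was followed by Slco1a6 with 232 ± 29.3, Slc22a12 with 232 ± 38.0 and Slc22a18 with 226 ± 5.77 CPM per kb. In Control male kidneys Slc22a12 (Urat1, apical urate reabsorption) led with 790 ± 147 CPM per kb, followed by Slc22a6 (Oat1) with 621 ± 97.3 and Slc22a18 with 610 ± 51.5. The ranges of mean ± SD of neighbours in these lists overlap.

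In the kidney more of these transporters fell than rose in Deficient mice, in females and in males. Of the 40 members 32 passed the filter on low counts there, and the others, Slc22a16, Slc22a20, Slco1a5, Slco1b2, Slco5a1 and the OATP6 genes, never exceeded 0.314 CPM. In Deficient females 1 member rose and 12 fell, against 4.76% rising and 4.67% falling among all 16797 tested genes. In Deficient males 5 rose and 15 fell, against 20.1% and 20.8% of all genes tested, so the falls exceed the background in both sexes and the rises lie near or below it. The median change over the 32 members was -0.22 in females and -0.17 in males, with 0.01 and 0.03 over all genes. The OATs were the leading subfamily in females, with 9 of 12 tested falling and 0 rising, and 7 fell and 3 rose in males. Counted by member, 7 fell in both sexes, 0 rose in both, 2 moved in opposite directions, 4 were called in females alone and 11 in males alone. The shares of all genes for this split are not given here. These counts and the female count of OATs include the 2 female kidneys that stood apart. Without them the female calls of both opposite movers, Slc22a29 and Slc22a27, were lost. So were those of Slc22a22 and Slco1a6, counted among the 7.

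Slc22a7 (Oat2), a transporter of organic anions and cyclic nucleotides, had the largest fall in male kidneys. Its level was 11.1 to 54 CPM (median 38.6) in Deficient males, against 249 to 573 CPM (median 381) in Control males, and the groups did not overlap (log2 change -3.41 ± 0.30, adjusted p = 8.54e-08). In females it was 89.7 to 179 CPM (median 123) in Deficient mice, against 181 to 311 CPM (median 238) in Control mice, with the highest Deficient library just under the lowest Control library (log2 change -0.93 ± 0.27, adjusted p = 0.031). The female call was lost in 8 of the 24 fits that left out 1 library, where its adjusted p reached 0.089.

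Slc22a2 (Oct2), which takes up cations such as creatinine and metformin from blood, fell in both sexes. Levels were 84.8 to 149 CPM (median 109) in Deficient females, against 175 to 236 CPM (median 220.2) in Control females (log2 change -0.95 ± 0.15, adjusted p = 0.000225). In males they were 209 to 418 CPM (median 337) in Deficient mice, against 586 to 923 CPM (median 755) in Control mice, and no Deficient library reached a Control library in either sex (log2 change -1.23 ± 0.15, adjusted p = 2.74e-06). Slc22a19 (Oat5), a transporter of steroid sulfates and ochratoxin in mouse, was 113 to 175 CPM (median 152) in Deficient females, against 271 to 412 CPM (median 297) in Control females, with no overlap (log2 change -1.14 ± 0.12, adjusted p = 3.55e-06). Male levels of Slc22a19 were lower and just overlapped, 42.3 to 71.5 CPM (median 58.7) in Deficient mice, against 69.5 to 107 CPM (median 97.8) in Control mice (log2 change -0.68 ± 0.12, adjusted p = 0.000223). Further members that fell in both sexes were these: Slc22a22 (Oat-PG), which clears prostaglandins in the mouse kidney, changed by -0.87 ± 0.18 in females and -0.68 ± 0.17 in males, and Slco1a6, a kidney OATP1 member, by -0.60 ± 0.13 and -0.35 ± 0.13. Without the 2 female kidneys that stood apart the adjusted p in females was 0.0514 for Slc22a22 and 0.0566 for Slco1a6. The male call of Slco1a6 was lost in 7 of the 24 fits without 1 library.

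**Figure D2:**
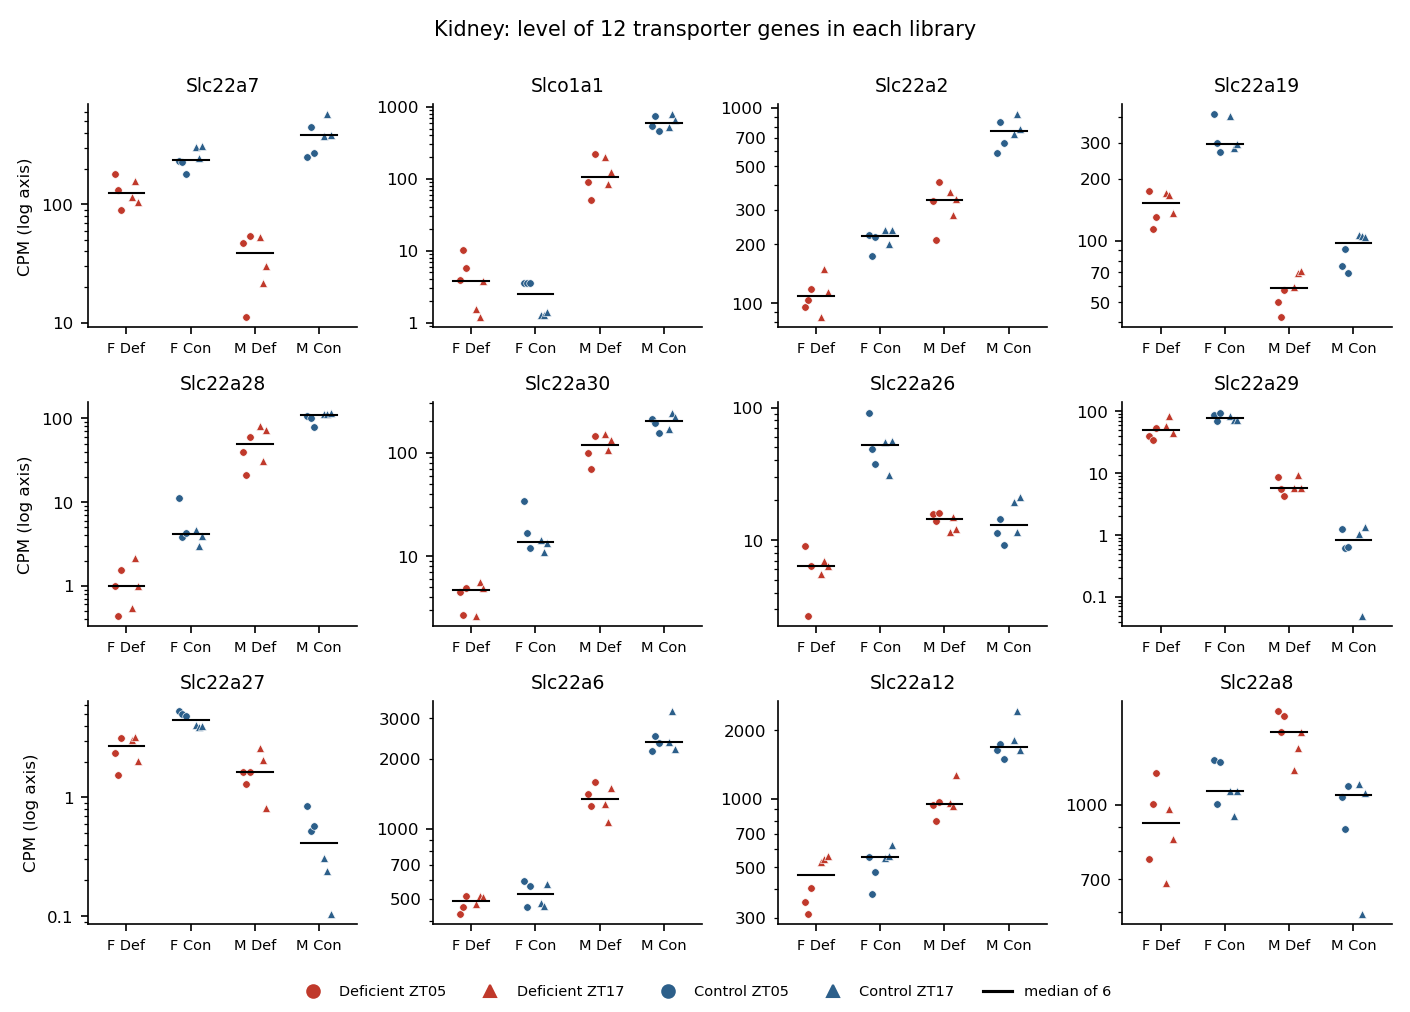
CPM (log axis) of 12 transporter genes in each kidney library, Deficient beside Control for females (F Def, F Con) and males (M Def, M Con), circles for ZT05 and triangles for ZT17, lines at the median of 6 libraries. Values below 0.05 are drawn at 0.05. Slc22a7 and Slco1a1 sit lower in Deficient than in Control males with no overlap, and Slc22a29 and Slc22a27 move down in females and up in males.

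The OAT relatives of rodents Slc22a26 to Slc22a30 lie on chromosome 19 within a stretch that holds 10 of the 40 members, and their kidney levels differed by sex in both directions. Their substrates are less well known than those of Slc22a6 and Slc22a8. Slc22a28 was 0.44 to 2.16 CPM (median 0.987) in Deficient females, against 3 to 11.3 CPM (median 4.1) in Control females (log2 change -2.15 ± 0.38, adjusted p = 0.000912). In males it was far higher, 20.8 to 82.1 CPM (median 49.8) in Deficient mice, against 79.4 to 117 CPM (median 109) in Control mice, with an overlap in males and none in females (log2 change -1.09 ± 0.27, adjusted p = 0.00304). Slc22a30 followed the same pattern, 2.66 to 5.59 CPM (median 4.69) in Deficient females, against 11 to 34 CPM (median 13.8) in Control females (log2 change -1.95 ± 0.24, adjusted p = 2.08e-05). Its male values were 69.6 to 153 CPM (median 119) in Deficient mice, against 154 to 244 CPM (median 203) in Control mice, again with no overlap (log2 change -0.79 ± 0.21, adjusted p = 0.00437). Between these genes the counts cannot be fully assigned: 53.3% of the 50-base stretches of the longest Slc22a28 transcript also occur in Slc22a30 transcripts, and 32.0% of those of Slc22a30 in Slc22a28.

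Slc22a29 and Slc22a27, both higher in female kidneys, fell in females and rose in males. Slc22a29 was 35.2 to 85 CPM (median 49.3) in Deficient females, against 71.4 to 95.7 CPM (median 78.2) in Control females, with an overlap made by 1 Deficient ZT17 library at 85.0 CPM (log2 change -0.62 ± 0.18, adjusted p = 0.0312). In males it was 4.33 to 9.55 CPM (median 5.78) in Deficient mice, against 0 to 1.36 CPM (median 0.842) in Control mice, and the lowest Deficient library lay above the highest Control library (log2 change 2.93 ± 0.32, adjusted p = 1.32e-06). Slc22a27 was a low-level gene, 1.54 to 3.21 CPM (median 2.71) in Deficient females, against 3.93 to 5.36 CPM (median 4.47) in Control females (log2 change -0.82 ± 0.19, adjusted p = 0.0103). Male values of Slc22a27 were 0.812 to 2.62 CPM (median 1.64) in Deficient mice, against 0.105 to 0.848 CPM (median 0.416) in Control mice (log2 change 2.11 ± 0.32, adjusted p = 2.77e-05). The groups did not overlap in females and just overlapped in males. The 2 female calls were lost without the pair of kidneys that stood apart (adjusted p = 0.225 for Slc22a29 and 0.112 for Slc22a27), whereas the male adjusted p was then 2.68e-06 and 2.45e-05. Reads may also be shared within this pair (24.4% of 50-base stretches of Slc22a29 occur in Slc22a27, and 25.8% of those of Slc22a27 in Slc22a29).

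The promoters of 3 of these neighbours are shown for comparison: Slc22a28 and Slc22a30, which fell in both sexes, and Slc22a29, which fell in females and rose in males. The female call of Slc22a29 was lost without the pair of kidneys that stood apart. Whether upstream sequence bears on these changes was not tested, and Slc22a28 and Slc22a30 may share reads. Each is the 250 bases before the RefSeq start (GRCm38.p6, minus strand, 5′ to 3′), and RefSeq promoters were matched for 35 of the 40 members. In pairwise alignment Slc22a28 and Slc22a30 were 93% identical, Slc22a29 was 65.4% identical to Slc22a28 and 64.7% to Slc22a30, and Slc22a27 was 47.9% identical to Slc22a28. Capitals mark a match, on either strand, to the HNF1 half-site GTTAAT. None of the other motifs searched, given with the liver promoters below, matched in these 3 windows.
Slc22a28, chr19:8131983-8132232: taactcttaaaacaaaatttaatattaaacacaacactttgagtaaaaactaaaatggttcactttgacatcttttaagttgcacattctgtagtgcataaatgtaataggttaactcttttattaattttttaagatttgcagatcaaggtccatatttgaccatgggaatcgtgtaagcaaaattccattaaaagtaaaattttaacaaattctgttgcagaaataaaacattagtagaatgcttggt
Slc22a30, chr19:8405106-8405355: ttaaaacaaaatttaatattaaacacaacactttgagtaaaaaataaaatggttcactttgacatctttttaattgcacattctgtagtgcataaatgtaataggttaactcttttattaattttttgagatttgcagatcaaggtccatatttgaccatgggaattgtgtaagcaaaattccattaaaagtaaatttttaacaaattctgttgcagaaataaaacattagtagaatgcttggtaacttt
Slc22a29, chr19:8218901-8219150: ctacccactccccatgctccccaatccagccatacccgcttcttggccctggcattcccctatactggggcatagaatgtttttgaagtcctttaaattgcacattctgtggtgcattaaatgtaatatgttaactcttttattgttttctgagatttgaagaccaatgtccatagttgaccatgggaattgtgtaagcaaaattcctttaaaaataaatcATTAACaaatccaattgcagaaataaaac
The one match, 24 to 29 bases before the Slc22a29 start, is a description of letters and no evidence of binding. GTTAAT occurs in 6.43% of the 32851 mouse promoters of the same length and in 4 of the 35 members' promoters.

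Slc22a26, of the same cluster, had the largest fall of any member in female kidneys. Deficient females had 2.69 to 9.01 CPM (median 6.39), against 30.8 to 91.6 CPM (median 51.9) in Control females, with no overlap (log2 change -3.10 ± 0.24, adjusted p = 3.4e-08). Male kidneys had 11.4 to 16 CPM (median 14.4) in Deficient mice, against 9.21 to 21.3 CPM (median 13) in Control mice (log2 change -0.05 ± 0.24, adjusted p = 0.887). The response differed between the sexes (log2 difference -3.05 ± 0.34, adjusted p = 1.23e-05, female over male). Also called in females alone were Slc22a13 (Oat10, a nicotinate and urate exchanger), at -0.47 ± 0.11, and Slc22a17, the lipocalin-2 receptor, at -0.31 ± 0.09. For these and for Slc22a21, named next, no difference between the sexes in response was called. Male medians in Deficient and Control mice went the same way as in females. They were 59.2 and 65.9 CPM for Slc22a13, 25.3 and 28.3 CPM for Slc22a17, and 7.53 and 6.40 CPM for Slc22a21. The 1 member that rose was Slc22a21 (Octn3, a mouse carnitine transporter), at 0.87 ± 0.26, and its highest value, 15.6 CPM, came from 1 of the pair of kidneys that stood apart. Of its 50-base stretches 23.8% also occur in Slc22a5, and 36.0% of those of Slc22a13 in the pseudogene Slc22a13b-ps, so their counts may be shared. Without this pair the adjusted p was 0.119 for Slc22a21 and 0.178 for Slc22a17, while that of Slc22a13 was 0.00581. In all, 7 members were then called in females, each lower in Deficient mice. Leaving out 1 library also ended the call of Slc22a17 in 10, of Slc22a21 in 8 and of Slc22a29 in 8 of 24 fits.

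Slco1a1, a carrier of bile acids and steroid conjugates that male rodent kidneys are known to make in excess, fell in males alone. Deficient males had 51.4 to 220.2 CPM (median 107), against 458 to 786 CPM (median 596) in Control males, with no overlap (log2 change -2.29 ± 0.29, adjusted p = 4.82e-06). In females it was a trace transcript, 1.19 to 10.4 CPM (median 3.84) in Deficient mice, against 1.26 to 3.62 CPM (median 2.5) in Control mice (log2 change 0.82 ± 0.37, adjusted p = 0.169). The basolateral anion transporter Slc22a6 was 1072 to 1587 CPM (median 1344) in Deficient males, against 2163 to 3222 CPM (median 2359) in Control males, again with no overlap (log2 change -0.89 ± 0.11, adjusted p = 2.68e-06). It changed by -0.12 ± 0.11 in females (adjusted p = 0.513). The urate transporter Slc22a12 was 799 to 1275 CPM (median 951) in Deficient males, against 1493 to 2434 CPM (median 1684) in Control males (log2 change -0.89 ± 0.11, adjusted p = 4.25e-06). Its change was -0.25 ± 0.11 in females (adjusted p = 0.156).

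Further falls in male kidneys were smaller. Slco3a1, a prostaglandin and thyroxine carrier, changed by -0.86 ± 0.14, and Slc22a18, an imprinted member with no settled substrate, by -0.54 ± 0.07, each with every Deficient library below every Control library. The ergothioneine transporter Slc22a4 changed by -0.43 ± 0.11 and the carnitine transporter Slc22a5 by -0.30 ± 0.11, and the call of Slc22a5 was lost in 5 of the 24 fits without 1 library. None of these was called in females, where their changes ran between -0.27 and -0.02.

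Slc22a8, the second major basolateral anion transporter, went against Slc22a6 and rose in males. Deficient males had 1183 to 1565 CPM (median 1414), against 594 to 1102 CPM (median 1048) in Control males, with no overlap (log2 change 0.52 ± 0.13, adjusted p = 0.00316), and the lowest Control value, 594 CPM, came from the replicate with high Cd74. In females it was 687 to 1164 CPM (median 914) in Deficient mice, against 946 to 1239 CPM (median 1067) in Control mice (log2 change -0.26 ± 0.13, adjusted p = 0.202). Slco2b1, a widely expressed steroid sulfate carrier, rose in males (log2 change 0.33 ± 0.13, adjusted p = 0.047), a call lost with DESeq2 and in 13 of the 24 fits without 1 library. Slc22a14 rose in males from traces: Deficient males had 0.238 to 1.37 CPM (median 0.939), against 0 to 0.925 CPM (median 0.163) in Control males, and the fitted change (3.76 ± 0.82) is no bound because the 3 Control ZT17 libraries had 0 counts. Members above 20 CPM that were called in neither sex were Slc22a23, with -0.39 ± 0.14 in females and -0.01 ± 0.14 in males, Slco2a1 with -0.19 ± 0.09 and 0.12 ± 0.10, and the thyroid hormone carrier Slco4a1 with 0.39 ± 0.29 and 0.66 ± 0.30.

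Most members differed between female and male kidneys. In Control mice 13 members were higher in females and 13 higher in males, against 35.5% and 31.9% of all genes tested, so that these counts of the 32 tested members are near the background. In Deficient mice the counts were 11 and 13, against 26.7% and 24.7%. Among those higher in Control males (female over male) were Slco1a1 at -8.16 ± 0.39, Slc22a28 at -4.38 ± 0.32, Slc22a30 at -3.61 ± 0.23, and Slc22a6 at -2.25 ± 0.11. Smaller male-side values were those of Slc22a2 at -1.82 ± 0.15, Slco3a1 at -1.82 ± 0.14, Slc22a12 at -1.79 ± 0.11, Slc22a22 at -1.63 ± 0.18 and Slc22a18 at -1.45 ± 0.08, and then Slc22a7 at -0.63 ± 0.27, Slco4c1, a thyroid hormone and digoxin carrier, at -0.59 ± 0.16, and Slc22a5 at -0.28 ± 0.11. Higher in Control females were Slc22a29 at 6.55 ± 0.28, Slc22a14 at 4.53 ± 0.70, Slc22a27 at 3.54 ± 0.28, and Slc22a26 at 1.88 ± 0.23. Smaller female-side values were those of Slc22a19 at 1.83 ± 0.13, the monoamine transporter Slc22a3 at 1.61 ± 0.36, Slc22a13 at 1.26 ± 0.12 and Slco2a1 at 1.18 ± 0.10. Below these came Slco1a6 at 1.12 ± 0.13, Slc22a15 at 0.90 ± 0.24, Slco4a1 at 0.78 ± 0.30, Slco2b1 at 0.69 ± 0.13 and Slc22a23 at 0.49 ± 0.14. The Slco4a1 call was lost without female Control ZT05 replicate 2 or male Control ZT17 replicate 2, and those of Slc22a7 and Slc22a5 in 8 and 5 of the 24 fits without 1 library.

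For 13 members the response itself differed between the sexes, 7 with a higher value in females and 6 with a lower one, against 8.11% and 5.83% of all genes tested. Because this difference of responses is also the difference between the sex contrasts in Deficient and in Control mice, it can be read either way. In 10 of the 13 the absolute size of the sex difference was smaller in Deficient than in Control mice, and in Slc22a30, Slc22a7 and Slc22a8 it was larger. The share of all genes for this split is not given here. Over all genes too fewer differed by sex in Deficient kidneys, 26.7% and 24.7%, against 35.5% and 31.9% in Control kidneys. The 10 include Slc22a26, whose sign turned. Slco1a1 had the largest sex difference in Control mice: its female over male value was -5.05 ± 0.35 in Deficient mice, against -8.16 ± 0.39 in Control mice (log2 difference 3.11 ± 0.47, adjusted p = 0.000321). Slc22a29 had 2.99 ± 0.21 in Deficient mice, against 6.55 ± 0.28 in Control mice (log2 difference -3.56 ± 0.37, adjusted p = 1.2e-05). The sign of the sex difference turned for Slc22a26, with -1.17 ± 0.24 in Deficient mice, against 1.88 ± 0.23 in Control mice. It also turned for Slc22a7, with 1.85 ± 0.28 in Deficient mice, against -0.63 ± 0.27 in Control mice (log2 difference 2.48 ± 0.39, adjusted p = 0.000421), and for Slc22a8, with -0.62 ± 0.13 in Deficient mice, against 0.17 ± 0.13, which was not called, in Control mice (log2 difference -0.78 ± 0.18, adjusted p = 0.00817). Calls for Slc22a30 and Slco3a1 were lost without the 2 female kidneys that stood apart (adjusted p = 0.0744 and 0.0962), and that of Slc22a14 in 4 of the 24 fits without 1 library. The Slco3a1 call was also lost without male Control ZT17 replicate 2 or male Deficient ZT17 replicate 2.

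**Figure D3:**
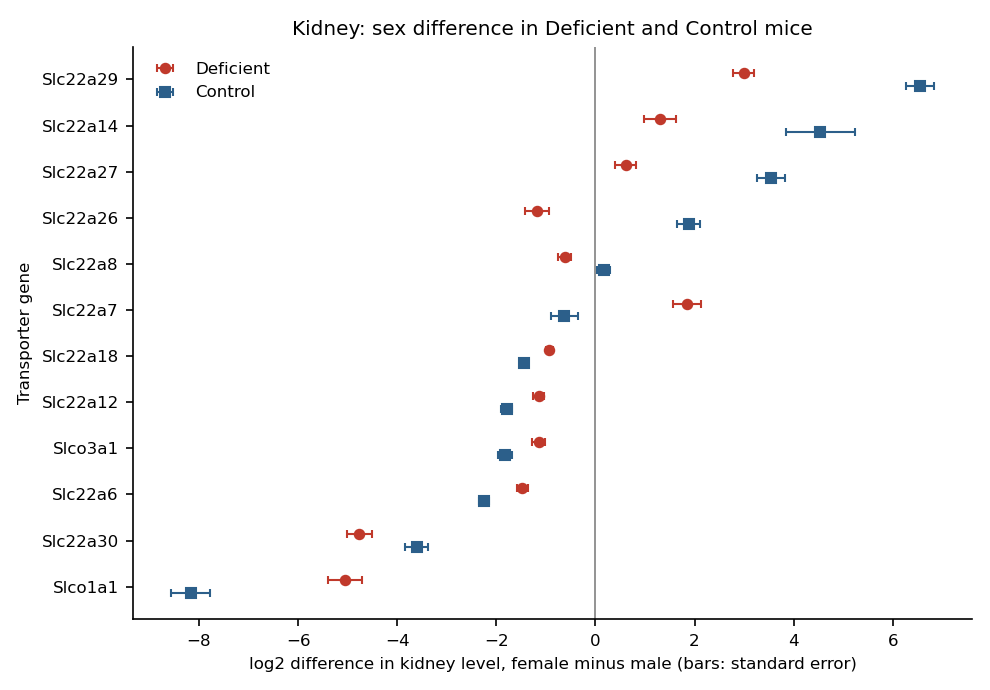
log2 difference in kidney level, female minus male (horizontal axis), for 12 of the 13 members whose response differed between the sexes, in Deficient (red circles) and Control mice (blue squares), bars showing the standard error. For Slco1a1 and Slc22a29 the Deficient point lies nearer to 0 than the Control point, and for Slc22a7 it lies on the other side of 0.

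Time of day moved few members in the kidney. Between ZT17 and ZT05, with both sexes joined, 1 member was higher and 4 were lower at ZT17 in Control mice, against 6.22% and 7.5% of all genes, and 2 were higher and 1 lower in Deficient mice, against 3.39% and 4.17%. Slc22a4 was lower at ZT17 under either treatment (log2 difference -0.60 ± 0.11, adjusted p = 0.00177 in Deficient and log2 difference -0.48 ± 0.10, adjusted p = 0.00406 in Control mice). Its Deficient ZT17 libraries had 58.9, 69.9 and 59.3 CPM in females and 75.0, 71.5 and 73.5 CPM in males, and its Deficient ZT05 libraries 117, 95.0 and 133.7 CPM in females and 83.3, 77.8 and 110.8 CPM in males, with no overlap within either sex. In Control mice Slco3a1 was higher at ZT17 (0.55 ± 0.14), and Slc22a21 (-0.89 ± 0.27), Slc22a27 (-0.96 ± 0.32) and Slc22a14 (-3.30 ± 0.84, with no counts in the male Control ZT17 libraries) were lower. In Deficient mice Slc22a12 (0.41 ± 0.11) and Slco4c1 (0.53 ± 0.16) were higher at ZT17, and both lost their call without the 2 female kidneys that stood apart (adjusted p = 0.205 and 0.186). Leaving out 1 library ended the call of Slc22a21 in 9, of Slc22a27 in 18, of Slc22a12 in 4 and of Slco4c1 in 9 of 24 fits. The response to deficiency differed between the times for 0 members by edgeR, where 2.74% of all genes had a higher and 3.33% a lower response at ZT17. By unadjusted p below 0.05 there were 4 of the 32 tested members, against 3745 of all 16797 genes. DESeq2 called 1 member, and over its 16159 genes 662 with a higher and 827 with a lower response.

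Markers of proximal tubule cells and of other kidney cell types were also counted. Over all genes 4.76% rose and 4.67% fell in Deficient females, and 20.1% rose and 20.8% fell in Deficient males. Of 12 proximal tubule genes 5 fell and 0 rose in Deficient females, with summed levels of 10984 to 18846 CPM in Deficient and 16353 to 18851 CPM in Control females. In Deficient males 6 fell and 1 rose, with 16059 to 20904 CPM, against 21517 to 23718 CPM in Control males and no overlap. None of these markers was at 0 throughout the kidney libraries. Of 14 genes of other nephron segments 0 changed in females and 5 rose in males. Of 9 immune genes 1 rose and 1 fell in females and 4 fell in males, and of 8 fibroblast and matrix genes 5 fell in females and 5 fell and 2 rose in males. Of 10 endothelial genes 1 fell in females and 1 rose in males. Their part in the transporter results was not tested. Kap, a proximal tubule gene long known to depend on androgens, was 253 to 2561 CPM in Deficient females, against 6350 to 10204 CPM in Control females, and 8187 to 24384 CPM in Deficient males, against 39641 to 63950 CPM in Control males.

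Other transporters of the same cells, in a list of 24 efflux pumps and partners of which 22 were tested, more often rose than fell in males. In Deficient females 2 rose and 3 fell, with a median change of 0.04, against 4.76% rising and 4.67% falling over all genes. Among these were the urate and phosphate transporter Slc17a3 at -0.88 ± 0.14 and the bile acid transporter Slc10a2 at -0.78 ± 0.20. Slc10a2 overlapped widely, with 43.1 to 307 CPM in Deficient and 147 to 288 CPM in Control females, and it rose in males (0.68 ± 0.21). Of those that rose, Abcb4, a trace transcript of at most 0.801 CPM in females, changed by 1.11 ± 0.32 and Abcc6 by 0.80 ± 0.19. In Deficient males 11 rose and 3 fell, against 20.1% rising and 20.8% falling over all genes, the median change being 0.42 with 0.03 over all genes. The drug efflux pumps Abcb1b and Abcb1a changed by 1.995 ± 0.16 and 1.76 ± 0.17. Abcb1b was 25.5 to 38.3 CPM (median 30.4) in Deficient males, against 4.1 to 9.49 CPM (median 7.98) in Control males. Abcb4, at trace levels of 0.203 to 0.571 CPM in Deficient and 0 to 0.628 CPM in Control males, changed by 1.55 ± 0.58. Slc51a, a subunit of the basolateral bile acid exporter, changed by -1.35 ± 0.15.

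Among 22 known regulators of these genes, 1 rose and 4 fell in Deficient female kidneys and 6 rose and 5 fell in males, with medians of -0.05 and -0.03. Set against 4.76% and 4.67% of all genes in females and 20.1% and 20.8% in males, the male counts are near the background. The prolactin receptor gene Prlr was 129 to 207 CPM (median 159.6) in Deficient females, against 257 to 359 CPM (median 309) in Control females, a change of -0.93 ± 0.21. In males it was 17.4 to 45.1 CPM (median 22.9) in Deficient mice, against 0.361 to 2.99 CPM (median 1.68) in Control mice, a change of 4.04 ± 0.31. The xenobiotic receptor Nr1i3 changed by 1.81 ± 0.37 in females and 1.82 ± 0.60 in males. Its male levels were low, 0.238 to 3.94 CPM (median 1.43) in Deficient and 0.0815 to 1.002 CPM (median 0.113) in Control mice. In females Esr1 changed by -0.73 ± 0.14 and the scaffold gene Pdzk1, whose protein anchors apical transporters, by -0.53 ± 0.12. In males the repressor gene Bcl6 changed by -1.25 ± 0.39.

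The liver carried a different set of members, and 6 of them moved the same way in both sexes. There 22 of the 40 members passed the filter. The 18 others were at or below 1.58 CPM in every library, including the kidney genes Slc22a6, Slc22a8, Slc22a12 and Slco1a6. In Deficient females 4 members rose and 5 fell, against 2.24% rising and 2.69% falling among all 13406 tested genes. In Deficient males 3 rose and 4 fell, against 4.51% and 4.02%. The counts exceed the background in either direction, while the median change of the 22 members, 0.08 in females and 0.05 in males, was near that of all genes, 0.03 and 0.07. Counted by member, 4 fell in both sexes, 2 rose in both, 3 were called in females alone and 1 in males alone. The shares of all genes for this split are not given here. A difference between the sexes in response was called for 0 members by edgeR, where 0.313% and 0.418% of all genes were called. At an unadjusted p below 0.05 were 3 of the 22 members, against 1972 of all 13406 genes. DESeq2 called 2 members, and over its 12295 genes 311 with a higher and 237 with a lower value in females.

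Slc22a7, which takes up organic anions into hepatocytes, had the largest fall in female livers. Deficient females had 1.78 to 7.51 CPM (median 6.43), against 31 to 52.5 CPM (median 43.5) in Control females, with no overlap (log2 change -2.89 ± 0.29, adjusted p = 1.78e-07). Deficient males had 0 to 20.5 CPM (median 5.68), against 13.3 to 96.8 CPM (median 51.5) in Control males, with 1 Deficient library above the lowest Control library (log2 change -2.67 ± 0.43, adjusted p = 0.000226). Those male values rest on 56 counts in all in the Deficient and 224 in the Control livers, and the change was -3.34 without male Deficient ZT17 replicate 3. Slco1a1 was 187 to 329.8 CPM (median 216) in Deficient females, against 774 to 1466 CPM (median 1061) in Control females (log2 change -2.08 ± 0.23, adjusted p = 7.28e-07). Male values of Slco1a1 were 53.4 to 177 CPM (median 85) in Deficient mice, against 265 to 567 CPM (median 338) in Control mice, and neither sex had an overlap (log2 change -1.96 ± 0.24, adjusted p = 1.26e-05).

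Slco1a4, a neighbouring member on chromosome 6 and a carrier of a like range of bile acids and steroid conjugates, went the other way. Deficient females had 354 to 778 CPM (median 604), against 66.7 to 181 CPM (median 142) in Control females (log2 change 2.06 ± 0.25, adjusted p = 2.67e-06). Deficient males had 232 to 432 CPM (median 305), against 25.3 to 231 CPM (median 119) in Control males, so that no Deficient library of either sex lay within its Control range (log2 change 1.78 ± 0.27, adjusted p = 0.000117). Slco1b2, of the same cluster, was 1299 to 1758 CPM (median 1502) in Deficient females, against 1447 to 2683 CPM (median 2062) in Control females. In males it was 921 to 1244 CPM (median 988) in Deficient males, against 919 to 1625 CPM (median 1092) in Control males. It changed by -0.39 ± 0.14 in females, with an adjusted p of 0.132, and by -0.21 ± 0.14 in males, with an adjusted p of 0.4. In females the trace transcript Slco1a5, also a member of it, changed by 2.36 ± 0.51, with 0.123 to 1.13 CPM (median 0.704) in Deficient mice, against 0.0575 to 0.264 CPM (median 0.115) in Control mice.

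The promoters of Slco1a1 and Slco1a4, neighbours with opposite changes, are shown for comparison (RefSeq, GRCm38.p6, minus strand, 5′ to 3′, 250 bases before the start). They were 44.1% identical in alignment. Besides GTTAAT, the motifs searched on both strands were the STAT site TTCNNNGAA, the androgen and glucocorticoid receptor half-site TGTTCT, the nuclear receptor half-site AGGTCA and the TATA box TATAAA. Capitals mark the matches.
Slco1a1, chr6:141946963-141947212: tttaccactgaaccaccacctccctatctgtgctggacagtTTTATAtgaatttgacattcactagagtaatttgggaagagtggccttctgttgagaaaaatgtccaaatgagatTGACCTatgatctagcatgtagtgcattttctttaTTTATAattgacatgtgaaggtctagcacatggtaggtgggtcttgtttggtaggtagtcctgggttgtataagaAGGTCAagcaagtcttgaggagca
Slco1a4, chr6:141856221-141856470: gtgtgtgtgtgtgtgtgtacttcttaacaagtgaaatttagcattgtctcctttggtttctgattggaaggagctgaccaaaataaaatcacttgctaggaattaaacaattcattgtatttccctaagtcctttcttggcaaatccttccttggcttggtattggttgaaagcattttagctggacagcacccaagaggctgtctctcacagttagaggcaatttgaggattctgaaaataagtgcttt
In Slco1a1 AGGTCA matched at 19 to 24 bases and, as TGACCT on the other strand, at 129 to 134 bases before the start, and TATAAA, as TTTATA, at 94 to 99 and 204 to 209 bases. In Slco1a4 none of the motifs was in the window. Of the 32851 promoters 14% hold AGGTCA, 12.4% TATAAA, 16.1% TGTTCT and 7.02% TTCNNNGAA. Of the 35 members' promoters 5 hold AGGTCA, 5 TATAAA, 6 TGTTCT and 7 TTCNNNGAA.

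**Figure D4:**
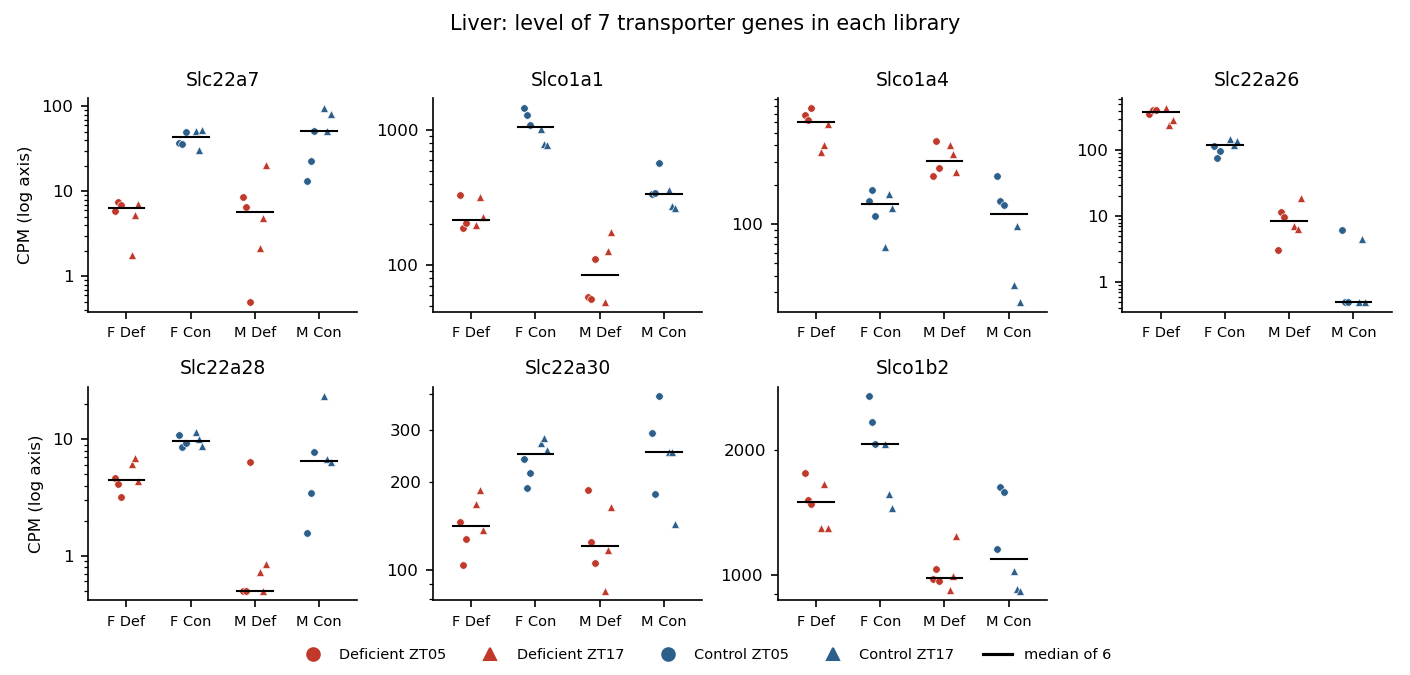
CPM (log axis) of 7 transporter genes in each liver library, Deficient beside Control for females and males, circles for ZT05, triangles for ZT17, lines at the median of 6 libraries. Values below 0.5 are drawn at 0.5. Slc22a7 and Slco1a1 sit lower and Slco1a4 higher in Deficient than in Control livers of both sexes, while Slco1b2 overlaps.

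Of the 10 members on chromosome 19, 5 were tested in the liver, and Slc22a26, Slc22a27, Slc22a28 and Slc22a30 were called there in at least 1 sex. The fifth, Slc22a29, was called in neither (0.54 ± 0.24 in females and 3.67 ± 2.51 in males). Slc22a26 rose, to 243 to 443 CPM (median 378) in Deficient females, against 76.5 to 150.2 CPM (median 119) in Control females (log2 change 1.66 ± 0.23, adjusted p = 3.03e-05). This is the opposite direction to its fall in female kidneys. The difference between the organs was not tested. In male livers Slc22a26 had 3.1 to 18.8 CPM (median 8.4) in Deficient mice, against 0 to 6.26 CPM (median 0) in Control mice (log2 change 2.36 ± 0.66, adjusted p = 0.0252), from 68 and 10 counts in all. The change was between 1.96 and 6.24 when 1 library was left out (over 1.5 times as large without male Control ZT05 replicate 1 or ZT17 replicate 2), the call being lost in 5 of 24 such fits. Slc22a30 was 104 to 187 CPM (median 141) in Deficient females, against 191 to 284 CPM (median 248) in Control females (log2 change -0.72 ± 0.18, adjusted p = 0.0166), and changed by -0.94 ± 0.20 in males. Slc22a28 changed by -1.002 ± 0.24 in females and -3.69 ± 0.73 in males, the male value resting on 4 counts in the Deficient and 34 in the Control livers and reaching -6.54 without male Deficient ZT05 replicate 3. Slc22a27 rose in females, to 20.7 to 39.9 CPM (median 23.3) in Deficient mice, against 7.76 to 15.2 CPM (median 9.94) in Control mice (log2 change 1.33 ± 0.20, adjusted p = 8.46e-05). In males 5 of 6 Control livers had no count and the test did not call it (adjusted p = 0.0716).

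The call of Slc22a30 in females was lost without Control ZT05 replicate 1, Deficient ZT05 replicate 2 or Deficient ZT17 replicate 3. Slc22a21 rose in males, with 4.02 to 15.1 CPM (median 7.08) in Deficient mice, against 0 to 7.05 CPM (median 0.866) in Control mice. The 3 Control ZT17 livers had 0 counts, so that the fitted change (4.87 ± 1.22) is no bound. Above 20 CPM and called in neither sex were, beside Slco1b2, Slc22a18 with 0.18 ± 0.14 in females and -0.43 ± 0.14 in males, Slc22a23 with 0.02 ± 0.18 and 0.16 ± 0.24, and Slc22a5 with -0.16 ± 0.20 and 0.33 ± 0.37. The same held for Slco2a1 with 0.21 ± 0.12 and 0.15 ± 0.15, and Slco2b1 with -0.04 ± 0.17 and -0.05 ± 0.18.

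Female and male livers differed in library make-up as well as in sex. Alb was 147249 to 209531 CPM in Deficient females and 25453 to 37113 CPM in Deficient males, and 120789 to 195485 CPM in Control females and 32344 to 46235 CPM in Control males. Of 12 hepatocyte markers 0 changed with deficiency in females and 5 rose in males (4.51% of all genes rose there), none being at 0 throughout. Their summed level was 44708 to 59129 CPM (median 49470) in Deficient males, against 52237 to 72574 CPM (median 57508) in Control males. In females it was 196319 to 266436 CPM (median 206371) in Deficient and 173478 to 251764 CPM (median 214415) in Control mice. The part of these markers in the transporter results was not tested. In Control livers 9 members were higher in females and 4 in males, against 33.2% and 26.9% of all genes. In Deficient livers 11 and 5 were, against 34.8% and 29.2%. The split over all genes depends on the scaling. In Control livers edgeR had 4450 genes higher in females and 3601 in males (median log2 difference 0.21), 4072 and 3905 with DESeq2's size factors (median 0.10), and DESeq2 on its own gene set had 4037 and 5212 (median -0.45). In Deficient livers edgeR had 4669 and 3921, and DESeq2 4352 and 5360. The values of Slco1b2 and Slco2a1 given next were 0.37 and 0.48 with the stricter low-count filter, the lowest over the settings tried, and stayed called. Female over male, Control values included 6.47 ± 1.03 for Slc22a27, 6.12 ± 1.19 for Slc22a29, 5.88 ± 0.46 for Slc22a26, 1.45 ± 0.23 for Slco1a1, 1.25 ± 0.32 for Slc22a5, 1.24 ± 0.21 for Slc22a23, 0.74 ± 0.14 for Slco2a1 and 0.64 ± 0.14 for Slco1b2. On the male side stood Slco3a1 at -2.96 ± 0.27, Slc22a18 at -1.78 ± 0.14, Slc22a15 at -1.13 ± 0.25 and Slco2b1 at -1.001 ± 0.17. The fitted values of Slc22a27, Slc22a29 and Slc22a26 rest on 3, 4 and 10 counts in all 6 Control male livers. With DESeq2 those of Slc22a27 and Slc22a29 were 3.95 and 3.61. In edgeR the values of the 3 genes reached 9.70, 9.55 and 9.80 when 1 library was left out, all without male Control ZT05 replicate 1 or, for Slc22a26, also ZT17 replicate 2.

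In Control livers 0 members were higher and 3 lower at ZT17 than at ZT05, against 3.72% and 5.11% of all genes. Slco1a4 (log2 difference -1.04 ± 0.26, adjusted p = 0.0129) had 66.7, 171 and 133 CPM at ZT17 and 149.9, 181 and 115 CPM at ZT05 in Control females, and 34.0, 97.2 and 25.3 CPM at ZT17 and 231, 149 and 140.2 CPM at ZT05 in Control males. The male groups did not overlap and the female groups did, and the call was lost without male Control ZT17 replicate 1 or 3. Slco1b2 (log2 difference -0.54 ± 0.14, adjusted p = 0.0171) was also lower at ZT17, a call lost without female Control ZT17 replicate 3, as was Slc22a21 (-4.81 ± 1.2, with no counts in the male Control ZT17 livers). In Deficient livers 0 members were called by edgeR, where 0.477% and 0.261% of all genes were. At an unadjusted p below 0.05 was 1 of the 22 tested members, against 1659 of all 13406 genes. DESeq2 called 1 member, and over its 12817 genes 239 higher and 167 lower at ZT17. The response differed with time for 1 member, Slc22a21, against 2.04% and 1.39% of all genes, and this call was lost in 18 of the 24 fits without 1 library.

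In the liver 3 partner transporters rose and 2 fell of 21 tested in Deficient females, against 2.24% and 2.69% of all genes, with a median change of 0.22. Slc10a2 changed by -2.15 ± 0.31, the efflux pumps Abcc4 and Abcb1a by 1.78 ± 0.30 and 0.93 ± 0.22, and Slc17a1 by 0.87 ± 0.15. In Deficient males 2 rose and 1 fell, against 4.51% and 4.02%, with a median of 0.32: Slc17a1 at 1.73 ± 0.32, the basolateral pump Abcc3 at 1.06 ± 0.25 and Abcg2 at -0.82 ± 0.20. Among the 22 regulators 2 rose and 1 fell in females and 3 rose and 1 fell in males, with medians of -0.02 and 0.08, against the same shares of all genes. Cux2, a repressor known for its higher level in female mouse liver, was 28.3 to 132 CPM (median 61.6) in Deficient females, against 3.86 to 23.1 CPM (median 7.86) in Control females, a change of 2.49 ± 0.49. In Deficient males it was 8.03 to 217.8 CPM (median 23.0), against 0 to 3.47 CPM (median 1.56) in Control males (5.90 ± 1.13). Nr1i3 changed by 0.85 ± 0.21 in females and 0.83 ± 0.21 in males, the growth hormone receptor gene Ghr by -0.62 ± 0.15 and -0.57 ± 0.16, and Esr1 by 0.71 ± 0.20 in males.

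Across all 18 tissues that females have, 53 of 320 pairs of a tested member and a tissue were called, 23 up and 30 down, against 10.2% of all gene and tissue pairs (4.93% up, 5.29% down). In the 17 tissues of males 32 of 305 pairs were called, 11 up and 21 down, against 6.24% (3.09% up, 3.16% down). Kidney, liver and uterus held 34 of the 53 female calls, and kidney and liver 27 of the 32 male calls, and calls were made in 10 female and 6 male tissues.

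In the uterus 8 of 19 tested members rose and 4 fell, against 21.2% and 23.8% of all genes tested, and the median change was 0.40, with -0.02 over all genes. The rises exceed the background and the falls are near it. Slco4a1, a thyroid hormone carrier, had 2.3 to 12 CPM (median 3.99) in Deficient mice, against 16.2 to 90.2 CPM (median 50.4) in Control mice, with no overlap (log2 change -3.37 ± 0.41, adjusted p = 0.000273). Slco4c1 was 0.287 to 13.9 CPM (median 7.54) in Deficient mice, against 0.0525 to 0.701 CPM (median 0.354) in Control mice (log2 change 4.40 ± 0.80, adjusted p = 0.00126). Its low Deficient value is that of ZT05 replicate 1, which also had the highest Deficient Slco4a1 and Slco5a1. The monoamine transporter Slc22a3 was 46.1 to 97.2 CPM (median 67) in Deficient mice, against 3.69 to 35.2 CPM (median 20.3) in Control mice, with no overlap (log2 change 1.91 ± 0.44, adjusted p = 0.0048). The other 9 calls were named after their values were seen. Of these 6 rose, Slco1a4 at 3.16 ± 0.41 (a trace transcript, at most 1.01 CPM), Slc22a21 at 1.30 ± 0.21, Slc22a17 at 0.98 ± 0.37, Slco2b1 at 0.59 ± 0.15, Slc22a15 at 0.51 ± 0.18 and Slc22a5 at 0.27 ± 0.10. The other 3 fell, Slco1a6 at -5.40 ± 0.93 (a trace transcript, under 1.5 CPM in every library, whose fitted value is no bound because the 3 Deficient ZT17 libraries had 0 counts), the orphan Slco5a1 at -1.49 ± 0.31 and Slc22a18 at -0.81 ± 0.24. Cell type markers moved too: 9 of 10 endothelial genes rose (summed 433 to 801 CPM in Deficient and 274 to 501 CPM in Control uteri). Of epithelial genes, 4 of 7 fell and 1 rose (955 to 1661 and 1479 to 4248 CPM). Of 8 fibroblast and matrix genes 2 rose and 4 fell. Of immune genes, 6 of 8 tested fell (212 to 454 and 357 to 760.5 CPM). No marker of these lists was at 0 throughout, and their part in the transporter results was not tested.

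**Figure D5:**
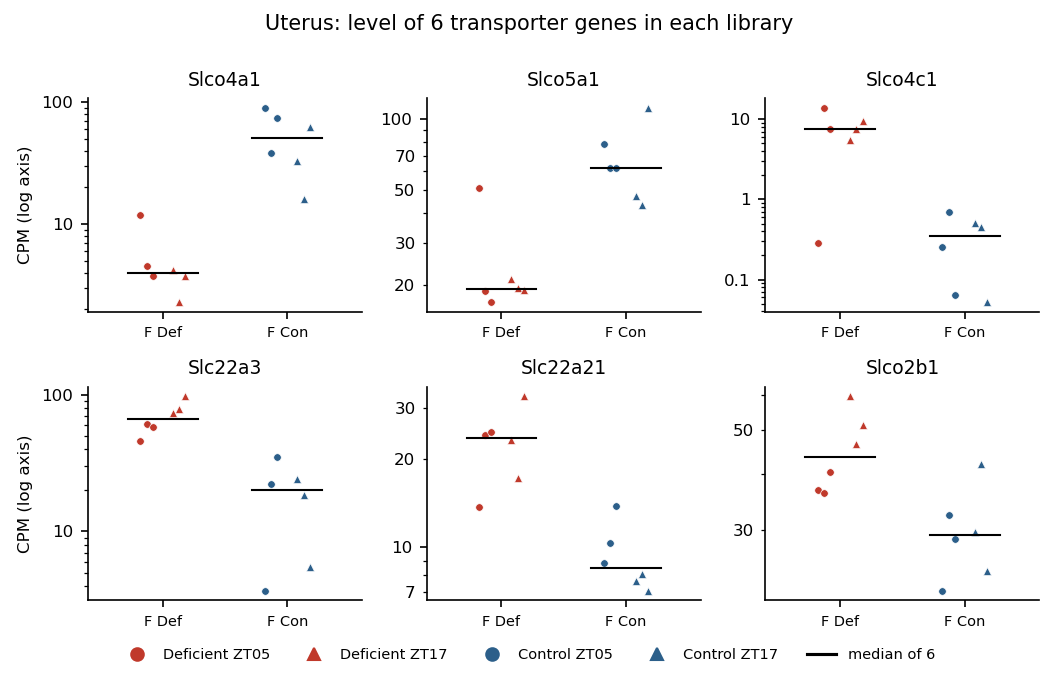
CPM (log axis) of 6 transporter genes in each uterus library, Deficient beside Control, circles for ZT05, triangles for ZT17, lines at the median of 6 libraries. Slco4a1 and Slco5a1 are lower and Slco4c1, Slc22a3, Slc22a21 and Slco2b1 higher in Deficient uteri, and 1 Deficient ZT05 library lies with the Control libraries for Slco5a1 and Slco4c1.

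In skeletal muscle Slco5a1 was lower in Deficient females in 3 of the muscles. In the soleus it was 63.5 to 140.1 CPM (median 120.0) in Deficient females, against 103 to 242 CPM (median 183) in Control females (log2 change -0.64 ± 0.15, adjusted p = 0.00569), with 4 of 15 tested members called there, against 21.6% of genes. Its changes were -0.53 ± 0.13 in the extensor digitorum longus (EDL), where 3 of 12 were called against 31.9% of genes, and -0.36 ± 0.12 in the tibialis anterior, where 4 of 11 were called against 30.7%. These shares are near or below the background. In the soleus Slc22a17 changed by -0.66 ± 0.14 with no overlap and Slco3a1 by 0.33 ± 0.10. In the EDL Slco3a1 changed by 0.33 ± 0.11. In the tibialis anterior Slc22a17 changed by -0.48 ± 0.17 and Slc22a4 by -0.39 ± 0.13. Slco5a1 also fell in the tibialis anterior tendon of females (-1.005 ± 0.24, 8.35% of genes called). In the male heart it fell to 1.53 to 5.35 CPM (median 3.34) in Deficient males, against 5.18 to 10.1 CPM (median 7.2) in Control males (log2 change -1.03 ± 0.22, adjusted p = 0.0169, 2.86% of genes called). Carnitine and ergothioneine transporter genes changed elsewhere, Slc22a4 by 0.89 ± 0.22 in male heart and 0.62 ± 0.15 in male adrenal (1.13% of genes called, the call being lost in 20 of 24 fits without 1 library). Slc22a21 changed by 0.95 ± 0.26 in female heart (3.3% of genes called) and Slc22a5 by 0.51 ± 0.12 in male lung (5.24%) and -0.61 ± 0.19 in male gastrocnemius tendon (9.21%). With each sex fitted alone 5 of these calls were lost, those of Slco5a1 in the tendon of the tibialis anterior (adjusted p = 0.0979) and the male heart (0.192), of Slc22a4 in the male heart (0.238) and of Slc22a5 in the male lung (0.201) and tendon, where 3 other settings also lost it (adjusted p up to 0.307). The tibialis anterior calls of Slc22a17 and Slc22a4 were lost in 2 and 1 settings (adjusted p up to 0.057 and 0.0525). In the ovary, where 3 members were called against 10.4% of genes, Slc22a4 was 15 to 33.3 CPM (median 28.3) in Deficient mice, against 4.96 to 19.8 CPM (median 12.6) in Control mice (log2 change 1.06 ± 0.27, adjusted p = 0.0367). Without 1 library this call was lost in 9 of 12 fits. Outside kidney and liver few members differed in response between the times or sexes. The response of Slc22a22 differed by -4.02 ± 0.96 (SE) between ZT17 and ZT05 in the lung (6.14% of genes called), those of Slc22a5, Slc22a15 and Slco3a1 by 1.21 ± 0.27, 1.34 ± 0.41 and -1.35 ± 0.46 in BAT (14.5%) and that of Slco2b1 by 0.73 ± 0.15 in the soleus (3.86%). In male BAT mitochondrial and rRNA-like transcripts were 27.7% to 94.8% of the counts in Deficient and 73.4% to 94.4% in Control mice. The male Deficient ZT17 replicate 3 of BAT comes from the second set of males. Whether this bears on the calls in BAT was not tested. In the adrenal the response of Slc22a3 was -2.13 ± 0.54 in females minus males (1.78%), where sex and animal set cannot be told apart. The ovary libraries as labelled had medians of 0.218 CPM of Amh and 0.994 CPM of Zp3, defining markers of follicles and oocytes, so that the medians of these markers do not bear out the labelled tissue.

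Kidney transporters, 3 in number, were called in the female adrenal, against 5.42% of genes, and rest on 1 library. Deficient ZT17 replicate 1 had 76.8 CPM of Slc22a6, 153.7 CPM of Slc22a8 and 80.6 CPM of Slc22a12, whereas the 5 other Deficient libraries reached at most 1.33, 5.51 and 1.21 CPM and the 6 Control libraries at most 0.131, 1.12 and 0.230 CPM. The same library had 474.5 CPM of the proximal tubule gene Slc34a1 and 192.5 CPM of Umod. Of the male adrenals Control ZT05 replicate 2 had 18.8 CPM of Slc22a6 and 54.1 CPM of Slc34a1. The changes were 5.86 ± 1.61, 4.83 ± 1.16 and 4.68 ± 1.34 with it, and 1.89, 1.15 and 1.23 without it, when none was called. Over the fits without 1 library their adjusted p reached 0.595, 0.475 and 0.602.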

How the data were processed

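Bulk poly(A)-selected RNA-seq libraries were made from 500 ng of total RNA with a stranded kit, per the labels. The submitters' processing notes name the build GRCm38 (mm10) and the tools STAR 2.7.10a and cutadapt 4.1; the counting step and its strand setting are not given in the sources used here. The authors deposited raw counts per gene, on which every result rests; their normalized counts served to check that each library was divided by a single factor. The members and all gene lists were chosen with earlier results of these data known.

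Tests were run within a tissue, using edgeR 4.0.16 (R 4.3.3): filterByExpr (minimum count 10, minimum total 15), TMM scaling, quasi-likelihood tests with 1 coefficient per sex, treatment and time, and Benjamini-Hochberg adjustment over all genes tested, with a threshold of 0.05. Responses are means over both times. Replicates are separate animals by their sample numbers. Levels are CPM over the counts outside 219 mitochondrially encoded and rRNA-like genes, TMM-scaled within a tissue, a change from the plan, which set them on all counts; tests used all counts. Total counts per library set the precision. Named were, in kidney and liver, called members and those averaging at least 20 CPM, and elsewhere up to 3 called members per tissue and sex averaging at least 1 CPM with the largest change; others were named after their values were seen. The counts cover 1 member and 1 regulator whose own results are not reported here. Exons of Slc22a3, Slc22a12 and Slco2b1 overlap genes on the opposite strand, so their counts may be shared if strand was not used. The code was tested on simulated data. Alternatives were DESeq2 1.42.0, its size factors, no or a stricter filter (5 CPM in 3 libraries), a replicate block, each sex alone, no mitochondrial and rRNA-like genes, and each library left out in turn; leaving out 2 kidneys together was chosen after seeing the data.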

Additional observations from a re-analysis of the deposited data

Results flagged for a closer look

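In the kidney the response to deficiency differed between the sexes in 13 members by edgeR's test of the difference itself, a test in which 8.11% of all genes were higher and 5.83% lower. Of 12 of these, the log2 response of females minus that of males was 3.11 for Slco1a1, 2.48 for Slc22a7, 0.77 for Slc22a6, 0.67 for Slco3a1, 0.64 for Slc22a12 and 0.52 for Slc22a18. It was -3.56 for Slc22a29, -3.23 for Slc22a14, -3.05 for Slc22a26, -2.93 for Slc22a27, -1.16 for Slc22a30 and -0.78 for Slc22a8. All male kidneys come from another set of animals than the females, so sex and set cannot be told apart here.

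Other differences between groups, again from edgeR's test of the difference, were found outside the kidney's sex comparison. In the liver the response of Slc22a21 was higher at ZT17 than at ZT05 by 4.91, where the male Control ZT17 livers had 0 counts. In the adrenal the response of Slc22a3 was -2.13 in females minus males, where 1.78% of all genes were called and sex and animal set again cannot be told apart; its medians were 3.29 CPM in Deficient and 6.44 CPM in Control females, and 6.13 CPM in Deficient and 2.50 CPM in Control males. In the lung the response of Slc22a22 differed by -4.02 between ZT17 and ZT05 (6.14% of genes called), at levels of at most 5.83 CPM. In brown adipose tissue the differences between the times were 1.21 for Slc22a5, 1.34 for Slc22a15 and -1.35 for Slco3a1 (14.5% of genes called), and in the soleus 0.73 for Slco2b1 (3.86% of genes called). The male Deficient ZT17 group of brown adipose tissue mixes the 2 sets of males.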

How the results depend on the processing

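Counts of called members in the response of kidney and liver and in the sex difference of Control mice stayed within 1.5 times under the other settings tried, except that fitting male livers alone called 4 members, against 7. Without the 2 female kidneys that stood apart 7 members were called in female kidneys, against 13. Contrasts of time gave few calls and moved more. In the kidney, ZT17 against ZT05 in Control mice (5 called) gave 9 with no low-count filter and 3 with the stricter one; in Deficient mice (3 called) 9 with no filter and 1 without the 2 kidneys; and the difference of responses (0 called) 6 with no filter, 1 with DESeq2 and 1 without the 2 kidneys. In the liver, the time contrast in Control mice (3 called) gave 7 with no filter and 5 with DESeq2, that in Deficient mice (0 called) 1 and 1, and the difference of responses between the times (1 called) 3 and 2, with 0 under the replicate block and 0 with the stricter filter. The difference of liver responses between the sexes (0 called) gave 1 with no filter and 2 with DESeq2. The cause of these shifts was not tested.

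Leaving out 1 library in turn gave 3 to 5 calls for kidney time in Control, 1 to 4 in Deficient and 0 to 2 for the difference of responses, and in the liver 2 to 5, 0 to 1 and 0 to 2 for the same contrasts and 0 to 1 for the difference between the sexes. Female kidneys gave 9 to 14 and male kidneys 17 to 21 calls.

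Samples of the same replicate number did not deviate together (mean correlation between -0.018 and 0.084 by tissue). With a replicate block 12 members were called in female kidneys, 1 higher and 11 lower. Of the named members' values 126 kept their call under the block and 9 lost it, 126 and 5 with DESeq2, 50 and 12 with each sex fitted alone, 70 and 10 without the 2 kidneys, and 2624 and 230 over the fits without 1 library, with 0 reversed. Male livers, with few counts outside mitochondrial and rRNA-like genes, limit every value below a few CPM there.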

Other observations

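Single libraries outside the kidney held members at levels far from the rest of their group. In the pituitary Slc22a8 was 102.8 CPM in female Deficient ZT17 replicate 3 and 38.4 CPM in female Control ZT17 replicate 1, and at most 28.2 CPM in the 22 other libraries. That Control library also had 36.7 CPM of Slco1a4 and 52.0 CPM of Slco1c1, the thyroxine carrier of brain capillaries. In the tendon of the extensor digitorum longus Slc22a8 was 74.1 and 26.8 CPM in female Control ZT05 replicates 1 and 2 and at most 3.27 CPM elsewhere.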
